A study of Mus musculus with 22 samples.

Results

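The mouse microRNAs (miRNAs) mmu-miR-25-3p, mmu-miR-32-5p, mmu-miR-92a-3p, mmu-miR-92b-3p and mmu-miR-363-3p share the seed AUUGCAC at bases 2 to 8. They were taken by name, 5 of the 1881 mouse miRNAs on an Agilent array, and followed across 22 arrays of small intestine, blood serum and feces. The choice used no measured value, though earlier results of these data were known. Males 8 weeks old had been given 0 Gy or 10 Gy of X-rays, the latter at a rate of 1.0 Gy in each minute. An array held Cy3-labelled RNA from 1 sample. Intestine and feces had 4 arrays at each dose. Serum, from blood of the heart, had 2 arrays at 0 Gy and 4 at 10 Gy. The labels used here name no strain and no interval between exposure and collection, and do not tie each sample to an animal. If some replicates were technical, the p-values measure a technical spread. Every sample type had a slide of its own, and on each slide the unirradiated samples lay in other columns than the irradiated ones. Sample type cannot be told apart from slide, nor dose from slide column.

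A miRNA finds its target messages mainly by pairing of the seed, so miRNAs with 1 seed share many predicted targets. miR-25 is encoded with miR-106b and miR-93 in the gene of the replication factor Mcm7. miR-92a ends the miR-17/92 cluster, whose transcription is driven by Myc and E2F and which is well known in proliferating cells and in lymphocyte development. miR-92a and miR-363 also lie in the related cluster of miR-106a on the X chromosome. Red blood cells are rich in miR-451a and miR-486a-5p, and miR-92a and miR-25 are also known in blood cells.

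The mature sequences, from RefSeq on GRCm38.p6, show how alike the members are. The seed is in capitals.
miR-25-3p: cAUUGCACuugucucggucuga
miR-92a-3p: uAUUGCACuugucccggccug
miR-92b-3p: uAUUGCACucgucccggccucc
miR-32-5p: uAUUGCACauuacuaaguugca
miR-363-3p: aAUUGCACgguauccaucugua
Position by position, miR-92a-3p had 19 of 21 bases in common with miR-92b-3p and 18 of 21 with miR-25-3p. miR-32-5p had 13 of 22 in common with miR-25-3p, and miR-363-3p had 9 of 22. After the seed, miR-363-3p had 2 of 14 bases in common with miR-25-3p. A further miRNA of the table, miR-367-3p, has the same seed and is not a member here. How far near-identical miRNAs share signal on these probes was not tested.

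Mature miR-25-3p lies on chromosome 5, minus strand, at chr5:138165332-138165353, within the span of Mcm7. Mature miR-92a-3p has 2 loci with the same sequence, chr14:115044476-115044496 on the plus strand and chrX:52741854-52741874 on the minus strand. The array cannot tell which locus its signal came from. miR-363-3p lies at chrX:52741697-52741718, minus strand, and miR-92b-3p at chr3:89227126-89227147, minus strand. miR-32-5p lies at chr4:56895272-56895293, minus strand, within the span of Tmem245. The annotation table used gives gene spans only, so exon and intron are not stated. Within 10 kb on the same strand, miR-25 had 3 hairpins including its own, and the loci of miR-92a had 6 each. miR-92b and miR-32 had only their own hairpin.

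Each member had 30 spots on an array, spread over 2 probes (miR-25-3p, miR-92a-3p, miR-363-3p) or 4 probes (miR-92b-3p, miR-32-5p). A miRNA was called detected on an array where the flag for well above background was set on 50% or more of the spots of at least 1 probe. The arrays detected between 131 and 675 miRNAs. Feces 0 Gy replicate 3 was the highest at 675, followed by feces 0 Gy replicate 4 at 585. No miRNA spot was saturated. The 10 listed miRNAs of intestinal epithelium were detected on all intestine arrays at both doses, and 8 of the 10 on every feces array. Of 5 listed red-cell miRNAs on the array, 2 were detected on every serum array at 0 Gy.

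Detection split the family. miR-92a-3p was detected on 17 of 22 arrays and miR-25-3p on 12 of 22. miR-92b-3p was detected on 1 of 22, and miR-32-5p and miR-363-3p on 0 of 22. In intestine, miR-25-3p and miR-92a-3p were detected on 8 of 8 arrays. In serum, miR-92a-3p was detected on 6 of 6 arrays, but miR-25-3p on 2 of 2 at 0 Gy and 1 of 4 at 10 Gy. In feces, miR-92a-3p was detected on 2 of 4 arrays at 0 Gy and 1 of 4 at 10 Gy, and miR-25-3p on 1 of 4 and 0 of 4.

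**Figure D1:**
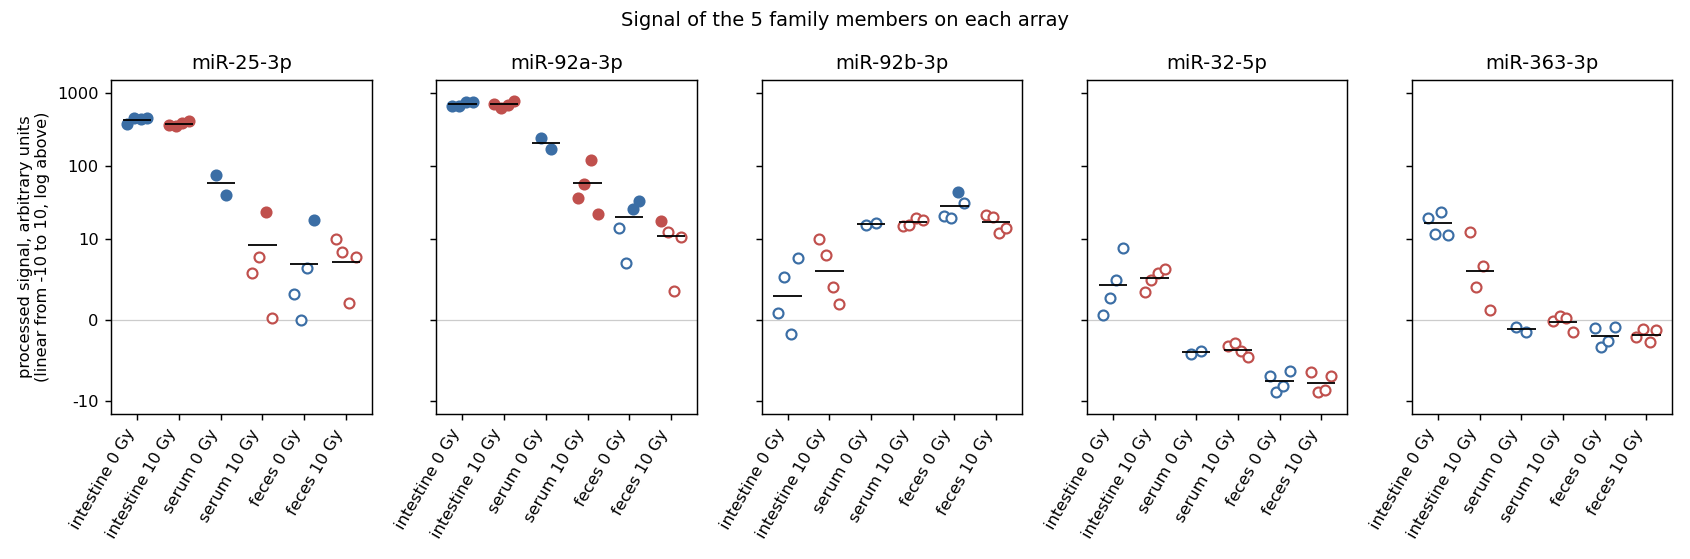
Processed signal (arbitrary units, linear between -10 and 10 and logarithmic above) of each member on each of the 22 arrays, by sample type and dose (blue 0 Gy, red 10 Gy). Filled points are arrays where the miRNA was detected, open points are arrays where it was not, and bars are group means. miR-25-3p and miR-92a-3p lie between 349.6 and 765.4 in intestine and lower in serum and feces. The other 3 members never exceed 43.2.

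The first question was what irradiation did in the small intestine. At 10 Gy, miR-25-3p fell by 0.65 on the log2 scale (SE 0.18, n = 4 against 4, limma adjusted p = 0.0142), a level 1.56-fold lower. miR-92a-3p was lower by a similar size and did not pass, with a change of -0.49 ± 0.19 (SE, adjusted p = 0.0517). In intestine 15.2% of the 335 tested miRNAs passed as lower and 26% as higher, or 41.2% in all. The count of 1 member that passed of 2 tested stands against that background.

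On the scaled log2 level, where 0 is the array's 75th percentile of commonly detected miRNAs, miR-25-3p was at -0.23, -0.10, -0.28 and -0.18 on the 4 arrays at 0 Gy. At 10 Gy it was at -0.60, -0.90, -1.20 and -0.67. Every irradiated array lay below every unirradiated one, and replicate 3 was the lowest. Of the 335 tested miRNAs, 38.5% did not overlap between the doses and 15.5% did so with lower levels at 10 Gy.

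miR-92a-3p was at 0.61, 0.46, 0.50 and 0.56 on the log2 scale at 0 Gy. At 10 Gy it was at 0.37, -0.05, -0.37 and 0.21. Its groups did not overlap either, and again replicate 3 was lowest at 10 Gy. The 95% interval of its change ran from -0.90 to -0.09, and that of miR-25-3p from -1.03 to -0.26. Each probe alone gave the same direction, with changes of -0.70 and -0.63 for miR-25-3p and -0.58 and -0.48 for miR-92a-3p. Fewer cells that carry a miRNA and less of it per cell cannot be told apart in these bulk samples.

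These falls are relative to the other miRNAs on the array. Before any scaling, the signal of miR-25-3p was 370.8, 450.04, 441.6 and 453.3 at 0 Gy and 361.0, 349.6, 381.5 and 416.7 at 10 Gy. That of miR-92a-3p was 668.3, 662.8, 755.03 and 759.7 at 0 Gy and 708.1, 627.2, 681.7 and 765.4 at 10 Gy, so its doses overlapped. Without scaling the change of miR-25-3p was -0.18 (adjusted p = 0.223) and that of miR-92a-3p -0.03 (adjusted p = 0.825), while the median of all tested miRNAs rose by 0.62. With the main scaling that median was 0.16. Set against the median, miR-25-3p was lower by a log2 difference of -0.81 to -0.69 over 4 scalings (the main one, none, the percentile of all miRNAs and quantile normalization). For miR-92a-3p that difference was -0.66 to -0.55. All of these but quantile normalization shift each array by a constant, so their near-equal differences were fixed in advance. With normexp background correction the differences were -0.38 for miR-25-3p and -0.27 for miR-92a-3p.

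The split of calls moved with the scaling too. Of 138 passing miRNAs 87 were higher and 51 lower with the main scaling. With quantile normalization 57 were higher and 64 lower, with the percentile over all miRNAs 21 and 86, and without scaling 186 and 13. More miRNAs were detected on the irradiated arrays, 331 to 389 against 286 to 300, and the part of this in the members' changes was not tested. As a share of the summed signal of detected miRNAs, miR-25-3p made up 0.118%, 0.152%, 0.131% and 0.133% at 0 Gy. Its share at 10 Gy was 0.101%, 0.0924%, 0.0846% and 0.0993%, below every unirradiated array.

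**Figure D2:**
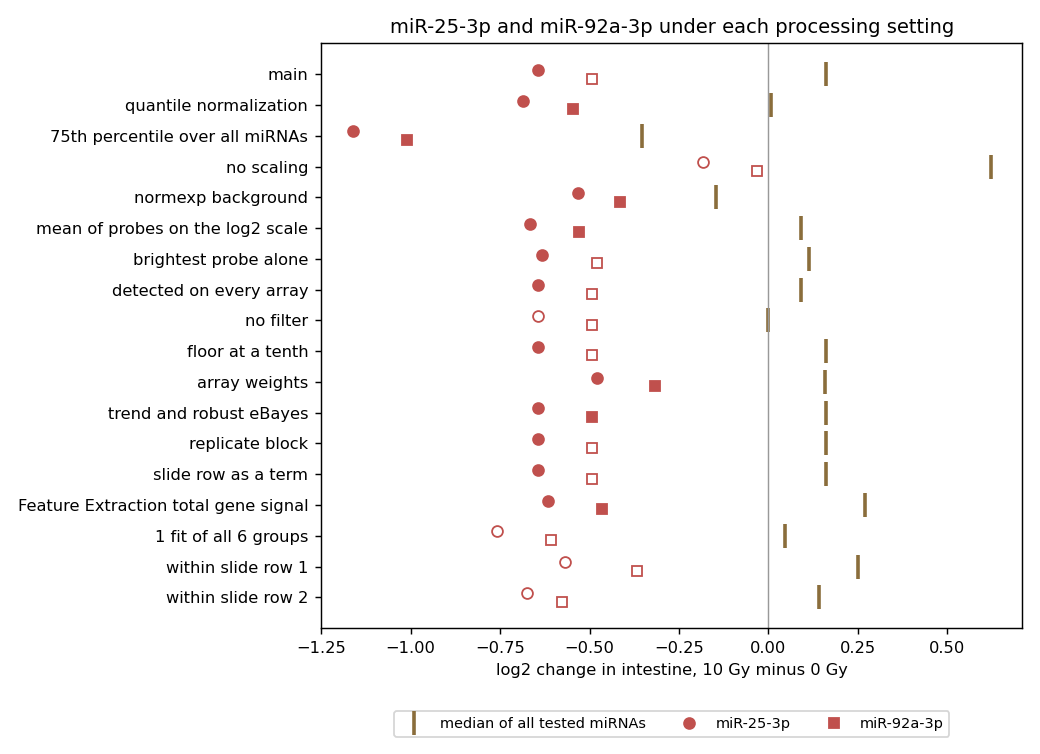
Log2 change in intestine (10 Gy minus 0 Gy, horizontal axis) of miR-25-3p (circles) and miR-92a-3p (squares) under the main setting and each alternative other than a left-out replicate. Filled symbols have an adjusted p below 0.05, and brown bars mark the median of all tested miRNAs under that setting. Every value is below 0, from -1.16 to -0.03, and the symbols lie left of the bar in each row.

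The call of miR-25-3p in intestine was lost without 0 Gy replicate 2 (adjusted p = 0.05), in 1 fit of all 6 groups (-0.76, adjusted p = 0.127) and within either slide row alone (-0.57 and -0.67, with 2 arrays against 2). It passed under 19 of 25 alternatives. miR-92a-3p passed under 8 of 25, among them the fit without 10 Gy replicate 1 (-0.59, adjusted p = 0.0256).

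Whether the 2 members changed unequally was tested on their ratio. The log2 ratio of the miR-92a-3p signal to the miR-25-3p signal, which needs no scaling between arrays, averaged 0.73 at 0 Gy and 0.88 at 10 Gy. The difference of 0.15 did not pass an exact two-sided permutation test (p = 0.0857, where 0.0286 is the smallest that 4 against 4 arrays can give).

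Most tested cluster partners of these miRNAs also fell in irradiated intestine. Of 20 partners on the array 9 were tested, and 7 passed as lower, beside the 15.2% of all tested miRNAs. miR-93-5p and miR-106b-5p, which share the Mcm7 cluster with miR-25, changed by -0.70 ± 0.18 (adjusted p = 0.00964) and -0.59 ± 0.18 (adjusted p = 0.0188). In the miR-17/92 cluster, 4 of 6 tested partners fell: miR-17-5p, miR-17-3p, miR-19a-3p and miR-20a-5p, by log2 changes from -0.67 to -0.51. miR-19b-3p (-0.43, adjusted p = 0.0669) and miR-18a-5p (-0.11, adjusted p = 0.641) did not pass. miR-20b-5p, the single tested partner in the X-linked cluster, had a change of -0.74 ± 0.19 (adjusted p = 0.00939). The partners' median changes were -0.64, -0.51 and -0.74 in the 3 clusters, against 0.16 over all tested miRNAs. Without scaling their changes ran from -0.28 to 0.35, with 7 of 9 below 0, and the 1 that passed was miR-18a-5p, as higher. With any 1 array left out, miR-20b-5p, miR-17-5p and miR-93-5p still passed. The calls of miR-17-3p and miR-20a-5p were lost without any 1 of the 4 unirradiated arrays or 10 Gy replicate 2 (highest adjusted p = 0.0889 and 0.101), that of miR-19a-3p without 0 Gy replicate 2, 3 or 4 (0.0624) and that of miR-106b-5p without 0 Gy replicate 3 or 4 (0.0591).

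Many of these partners are themselves near-copies, so their probes may not be independent. The shared seed AAAGUGC is in capitals.
miR-17-5p: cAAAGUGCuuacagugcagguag
miR-20a-5p: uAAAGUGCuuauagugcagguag
miR-20b-5p: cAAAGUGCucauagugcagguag
miR-93-5p: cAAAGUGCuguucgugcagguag
miR-106b-5p: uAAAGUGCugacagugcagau
miR-17-5p had 21 of 23 bases in common with miR-20a-5p and with miR-20b-5p, and 19 of 23 with miR-93-5p.

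**Figure D3:**
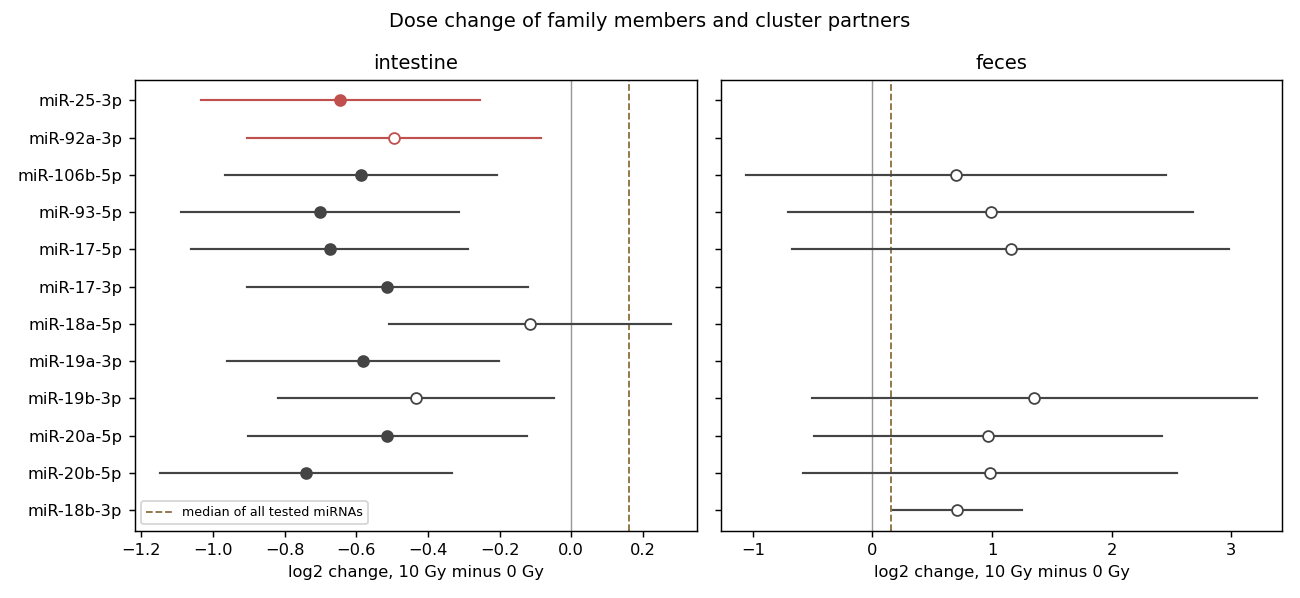
Log2 change with dose (10 Gy minus 0 Gy, with its 95% interval) of the 2 tested members (red) and their cluster partners (grey) in intestine and in feces. Filled points have an adjusted p below 0.05, the dashed line is the median of all tested miRNAs, and a missing point was not tested in that sample type. In intestine all 11 points lie below 0 (miR-18a-5p and miR-19b-3p lie above 0 without scaling), and in feces all 7 lie above 0 without passing (miR-106b-5p lies below 0 without scaling or within slide row 2, and miR-17-5p, miR-20a-5p, miR-20b-5p and miR-93-5p lie below 0 within slide row 1).

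Other lists moved in the same arrays. With the main scaling, 6 of 10 tested epithelial miRNAs passed as lower, beside 15.2% of all tested miRNAs. Of 7 smooth-muscle and mesenchymal miRNAs 3 passed as higher, beside 26% of all. These were miR-199a-3p, miR-199a-5p and miR-214-3p, while miR-143-3p, miR-145a-5p, miR-133a-3p and miR-1a-3p did not pass. Of 6 leukocyte miRNAs 3 passed as lower and 1 as higher. Of 3 tested red-cell miRNAs, miR-486a-5p passed as higher (0.66, limma adjusted p = 0.0118). It was detected on 0 of 4 intestine arrays at 0 Gy and 4 of 4 at 10 Gy. miR-451a and miR-16-5p did not pass. The summed scaled level (linear, with the scaling common to all arrays) of the epithelial list ran from 78.2 to 149.7 at 0 Gy and from 37.0 to 94.2 at 10 Gy. That of the leukocyte list ran from 2.00 to 3.46 and from 1.75 to 2.89. Their part in the members' changes was not tested.

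The members that stayed near background in intestine had signals of a few units. miR-363-3p had 19.3, 11.8, 23.4 and 11.3 at 0 Gy and 12.4, 4.06, 6.62 and 1.19 at 10 Gy. At 10 Gy 1 array lay above 2 of the unirradiated ones. The scanner software's own call for a whole miRNA was less strict and gave miR-363-3p as present on 4 of 4 unirradiated and 0 of 4 irradiated arrays. With the software's total signal per miRNA, miR-363-3p passed as lower in intestine (adjusted p = 0.0023 over 391 miRNAs). Its fitted change rests on the value set for undetected arrays and is not given. Without a filter on detection it did not pass (adjusted p = 0.351).

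In intestine, miR-92b-3p lay between -1.75 and 9.98 and miR-32-5p between 0.567 and 8.86. Neither was detected on an intestine array by either call. The other arm of the miR-32 hairpin, miR-32-3p, passed detection on 3 of 4 irradiated and 0 of 4 unirradiated intestine arrays. Its signals were 16.7, 8.62, 2.45 and 17.5 at 0 Gy and 18.8, 121.5, 29.6 and 37.8 at 10 Gy. It was detected on too few arrays to be tested there.

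In serum, the question was whether dose changed the circulating members. miR-25-3p had a change of -1.63 ± 0.36 (SE, n = 4 against 2) that narrowly missed the threshold (limma adjusted p = 0.0505). miR-92a-3p had a change of -1.29 ± 0.58 and did not pass (adjusted p = 0.278). Of the 193 miRNAs tested in serum 4.66% passed, 2 higher and 7 lower.

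The signal of miR-25-3p in serum was 75.2 and 40.05 at 0 Gy. At 10 Gy it was 5.76, 7.74, 23.2 and 0.282. Only replicate 3 was detected at 10 Gy, and the doses did not overlap, as was the case for 30.1% of tested miRNAs. Replicates 1 and 4 at 10 Gy were at the floor, so the fitted change depends on where the floor lies and is no bound. With a lower floor, at 0.1 of the main one, it was -2.73 (adjusted p = 0.29), and with normexp background correction it was 0.02 (adjusted p = 0.961).

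miR-92a-3p gave 238.4 and 171.7 at 0 Gy and 36.3, 55.99, 121.4 and 22.1 at 10 Gy. The unirradiated arrays had the highest signals, but the median log2 change of all tested serum miRNAs without scaling was -0.84. On the scaled log2 level the doses overlapped, with -1.12 and -0.38 at 0 Gy and -3.08, -1.43, -1.10 and -2.53 at 10 Gy. Serum 10 Gy replicate 3 was the highest irradiated array for both members. Without it the change of miR-25-3p was -1.92 (limma adjusted p = 0.0118) and that of miR-92a-3p -1.60 (adjusted p = 0.208). That was the only left-out array without which miR-25-3p passed. Without another 10 Gy array its adjusted p was 0.0905 to 0.128. Without 0 Gy replicate 1 or 2, which leaves a single unirradiated array, its change was -1.76 or -1.45.

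The 2 tested red-cell miRNAs were also lower on the irradiated serum arrays. mmu-miR-451a changed by -3.41 (limma adjusted p = 0.0152) and mmu-miR-486a-5p by -1.46 (adjusted p = 0.0239), and both passed. Each kept its direction under every alternative that tested it, but passed under only 14 of 23 and 14 of 24 of them. Both calls were lost without either unirradiated array (adjusted p = 0.176 and 0.16 for miR-451a, 0.164 and 0.156 for miR-486a-5p), without a filter on detection (0.35 for both), with the replicate number as a block (0.125 and 0.166), within either slide row (0.303 to 0.414) and without the arrays of slide column 4 (0.129 and 0.183). The signal of miR-451a was 375.03 and 144.3 at 0 Gy and 11.4, 13.2, 31.6 and 2.40 at 10 Gy, where it was detected on 1 of 4 arrays. Its replicates 1 and 4 at 10 Gy were at the floor, so the size of its change depends on the floor. With the lower floor it was -3.71 (limma adjusted p = 0.0602), and with normexp background correction -0.89. The highest irradiated array of miR-451a was replicate 3, as for miR-25-3p. That did not hold for miR-486a-5p, with signals of 2392.4, 1205.8, 1426.2 and 729.0 at 10 Gy, the highest on replicate 1. On the scaled log2 level replicate 3 was the lowest irradiated array of miR-486a-5p, at 2.46. The summed scaled level of the 5 red-cell miRNAs on the array was 11.8 to 12.7 at 0 Gy and 3.40 to 5.18 at 10 Gy. Their part in the changes of miR-25-3p and miR-92a-3p was not tested. Other tested lists did not fall in serum. The single tested epithelial miRNA, miR-375-3p, passed as higher (2.61, limma adjusted p = 0.028), but no miRNA passed as higher without scaling. The 3 tested smooth-muscle and mesenchymal miRNAs had changes from 0.07 to 1.15, and the 1 tested leukocyte miRNA had 0.57. None of these passed. The serum arrays at 0 Gy also detected 175 and 219 miRNAs, against 131 to 176 at 10 Gy.

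**Figure D4:**
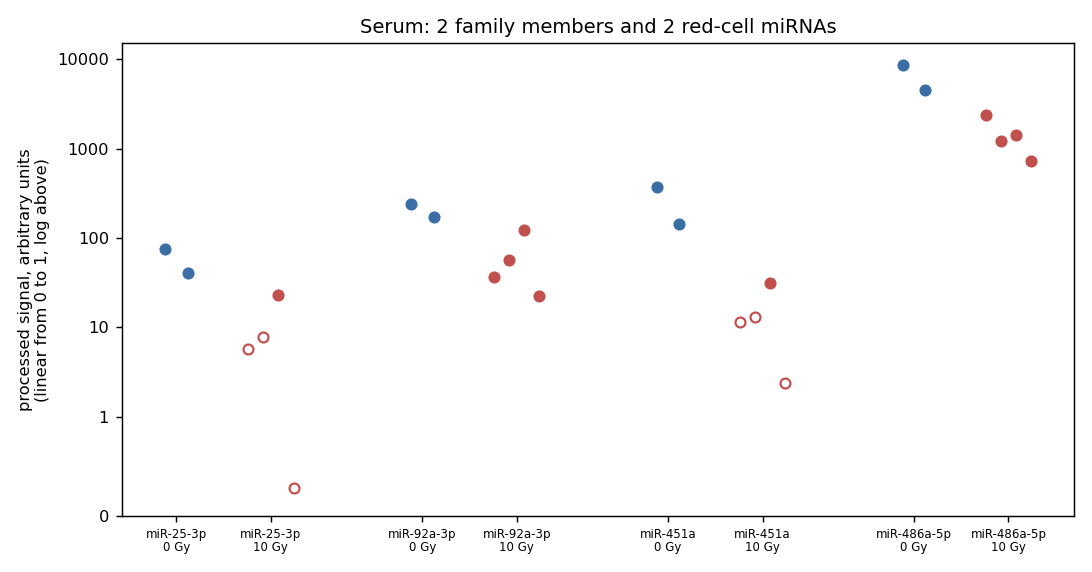
Processed signal (arbitrary units, linear up to 1 and logarithmic above) on the 6 serum arrays of miR-25-3p, miR-92a-3p and the red-cell miRNAs miR-451a and miR-486a-5p. Blue points are 0 Gy, red points 10 Gy, and open points were not detected. For each of the 4 miRNAs the 2 unirradiated arrays lie above the 4 irradiated ones. These signals are unscaled. Without scaling, the median log2 change of all tested serum miRNAs was -0.84, and on the scaled level the doses of miR-92a-3p overlapped.

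miR-92b-3p had serum signals from 14.9 to 19.2, with no array detected, and miR-32-5p and miR-363-3p lay from -4.60 to 0.521. None of the cluster partners was tested in serum. miR-93-5p, miR-17-5p, miR-20a-5p and miR-20b-5p were detected on 0 of 6 serum arrays, where miR-92a-3p was detected on 6 of 6.

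In feces no member was detected on enough arrays to be tested for dose, where 7.54% of 491 tested miRNAs passed. miR-92a-3p had signals of 13.99, 7.08, 25.7 and 33.2 at 0 Gy and 17.4, 12.2, 3.58 and 10.7 at 10 Gy. miR-25-3p had 3.19, 0.0354, 6.36 and 17.8 at 0 Gy and 10.1, 8.34, 2.13 and 7.82 at 10 Gy. The doses overlapped for both. miR-92b-3p had 20.5, 19.6, 43.2 and 30.8 at 0 Gy and 21.4, 20.1, 12.2 and 14.2 at 10 Gy. Its highest array, 0 Gy replicate 3, was its only detected array and the one with the most miRNAs detected. miR-32-5p lay between -8.91 and -6.25, and miR-363-3p between -3.31 and -0.893.

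Some cluster partners were detected on more feces arrays than the members. miR-93-5p, miR-17-5p, miR-20a-5p and miR-20b-5p were detected on 8 of 8 feces arrays, where miR-25-3p was detected on 1 of 8 and miR-92a-3p on 3 of 8. Feces signals of miR-93-5p ran from 35.5 to 163.8 and those of miR-17-5p from 41.5 to 227.8. None of the 7 tested partners passed for dose. Their changes ran from 0.70 to 1.35 (miR-106b-5p was at -0.18 without scaling), and the median of all tested miRNAs was 0.15. That direction did not hold within slide row 1, where miR-17-5p was at -0.91, miR-93-5p at -0.86, miR-20b-5p at -0.73 and miR-20a-5p at -0.61, nor within row 2 for miR-106b-5p (-0.11). Among the other arms of the members' hairpins, miR-32-3p had a change of 1.59 ± 0.42 in feces (adjusted p = 0.057) and miR-92a-2-5p, the arm made only by the X locus, of 1.30 ± 0.49 (adjusted p = 0.0892).

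The dose effects were also compared between sample types, in 1 limma fit of all 6 groups with a scaling common to all arrays. For miR-25-3p the effect was higher in feces than in serum by 2.19 ± 0.63 (adjusted p = 0.0484), in a comparison where 6.46% of 635 miRNAs passed. All 8 feces arrays were at the floor on this scale, so the value is that of serum turned in sign. It passed under 10 of 29 alternatives and was lost without any 1 of 11 of the 14 arrays. The other 5 differences did not pass, where 15.9% of 618 miRNAs passed for feces against intestine and 15.1% of 416 for serum against intestine. For miR-25-3p they were 0.76 ± 0.56 (feces against intestine, adjusted p = 0.368) and -1.43 ± 0.59 (serum against intestine, adjusted p = 0.103). For miR-92a-3p they were 0.61 ± 0.52 (adjusted p = 0.455), -0.70 ± 0.54 (adjusted p = 0.408) and, for feces against serum, 1.31 ± 0.58 (adjusted p = 0.214). All 8 feces arrays of miR-92a-3p were at the floor on this scale too. Every difference with feces, for both members, is therefore the intestine or serum change turned in sign.

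Across sample types, on a log2 scale common to all arrays, miR-92a-3p was highest in intestine, lower in serum and lowest in feces. For miR-25-3p the same order held for unirradiated serum, but irradiated serum and feces overlapped, with replicates 1 and 4 of serum at the floor, and were not tested against each other. On this scale miR-25-3p averaged -0.39 (0 Gy) and -1.15 (10 Gy) in intestine, -3.27 and -5.45 in serum, and -6.41, the floor, in feces at both doses. miR-92a-3p averaged 0.34 and -0.27 in intestine, -1.39 and -2.70 in serum, and -6.41 in feces. Neighbouring intestine doses overlapped on this scale and did not pass (adjusted p = 0.127 and 0.196). The serum doses passed in this fit of all 6 groups for miR-25-3p (adjusted p = 0.00118, no overlap) and for miR-92a-3p (adjusted p = 0.0393, with overlap), but not in the fit of serum alone given above. Over the alternatives to that serum fit, miR-25-3p passed under 4 of 23 and miR-92a-3p under 1 of 24. The feces doses have no order.

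In unirradiated samples serum was below intestine by -2.88 ± 0.45 for miR-25-3p (adjusted p = 2.93e-06) and -1.72 ± 0.42 for miR-92a-3p (adjusted p = 0.000588). Here 87.9% of 347 tested miRNAs differed, and their median was -1.70, so miR-92a-3p lay at the median of all miRNAs and miR-25-3p below it. With quantile normalization the difference of miR-92a-3p turned to 0.22 (adjusted p = 0.613). As a share of the summed signal of detected miRNAs, miR-92a-3p was not lower in unirradiated serum either, at 0.243% and 0.38%, against 0.221% ± 0.00573 (SD, n = 4) in intestine. At 10 Gy its share was 0.169% ± 0.0984 (SD, n = 4) in serum and 0.174% ± 0.02 in intestine, so serum and intestine kept no fixed order across these scales. At 10 Gy the differences were -4.30 ± 0.37 and -2.43 ± 0.34, with a median of -1.82 and 87.3% of 339 miRNAs passing.

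Feces were below intestine at 0 Gy by -6.02 ± 0.39 for miR-25-3p and -6.75 ± 0.36 for miR-92a-3p, where 82.3% of 496 miRNAs differed with a median of -0.18. At 10 Gy the differences were -5.26 and -6.15, with 78.3% of 539 passing and a median of -0.26. Feces were below serum at 0 Gy by -3.15 ± 0.49 and -5.03 ± 0.45 (50.1% of 597 miRNAs), and at 10 Gy by -3.72 ± 0.36 for miR-92a-3p (73.4% of 421). These sizes depend on the floor. For miR-25-3p, which was not detected on any feces array at 10 Gy, intestine at 10 Gy was at least 20.7-fold higher by its dimmer probe and at least 104-fold by its brighter probe after the common scaling. On the unscaled signals the same bounds were 5.495-fold and 27.5-fold. That bound sets the mean of the intestine arrays against, per feces array, the higher of the probe's own value and the lowest signal of a detected probe.

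By Pearson's r over log2 levels, the miRNAs most like miR-25-3p over all 22 arrays were miR-30e-5p (0.962), miR-106b-5p (0.958) and miR-3963 (0.941), of 262 candidates. Those most like miR-92a-3p were miR-30e-5p (0.981), miR-425-5p (0.98) and miR-5100 (0.98). Over the 8 intestine arrays, of 267 candidates, they were miR-93-5p (0.996), miR-425-5p (0.996) and miR-200b-3p (0.995) for miR-25-3p. For miR-92a-3p they were miR-17-3p (0.978), miR-103-3p (0.978) and miR-429-3p (0.976). These arrays share slides and scaling, and the values are descriptions.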

How the data were processed

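Scanner output of 22 one-colour arrays was used. The authors made the values with Agilent Feature Extraction 11.5, per the submitters' processing notes. The deposited intensity used, the processed signal, is linear, background-corrected and not scaled between arrays. The deposited spot and background intensity, the software's total signal per miRNA and the spot flags served alternatives and detection. In the authors' series table, all 58594 values of each column lay within 1% of the processed signal. Each array had 4415 probes for 1881 miRNAs.

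For each probe, spots not marked as outliers were averaged. The sum over probes was divided by the array's 75th percentile of miRNAs detected on all arrays of the fit (269 in intestine, 121 in serum, 326 in feces, 81 over all), raised to a floor (each array's lowest scaled value among detected miRNAs, as a median over arrays) and log2-transformed. Tests used limma 3.58.1 (lmFit, eBayes) in R 4.3.3 over miRNAs detected on a number of arrays no lower than the size of the smaller group, with Benjamini-Hochberg adjustment over all of them and a threshold of 0.05. The script was tested on simulated data. The number of arrays limits the precision. The array design names mm9; coordinates are those of RefSeq's GRCm38.p6 table, matched by miRNA name (5 of 5 members).

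The members and lists were chosen with earlier results of these data known. Named are all members, the other arms of their hairpins, cluster partners that passed for dose or, failing that, up to 4 per list by level, and the 3 most alike miRNAs; a few further values beside these were chosen after they were seen. Alternatives covered scaling, background, probe summary, filter, floor, weights, slide row, replicate block and left-out replicates. Feature Extraction's total signal, the signal ratio and serum without slide column 4 were added after seeing the data.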

Additional observations from a re-analysis of the deposited data

Results flagged for a closer look

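In 5 groups of 4 arrays, 1 array's log2 level lay apart from the other 3 by more than Dixon's critical value. The rate of about 1 of 20 groups for that value assumes normal values and does not hold for arrays at the floor. Where the other 3 arrays are at the floor, any value above it exceeds the critical value. miR-25-3p was at -6.55 on feces 0 Gy replicate 4, the single detected array of its group, with the other 3 at the floor. On feces 10 Gy replicate 3, miR-25-3p was at -7.79, the floor, and miR-92a-3p was at -7.79 (rounded, just above the floor), the lowest of their groups and not detected. On intestine 10 Gy replicate 1, miR-363-3p was at -5.47 and miR-92b-3p at -5.77, both not detected and with the other 3 arrays at the floor.

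The dose effect on miR-25-3p differed between feces and serum by 2.19 (adjusted p = 0.0484), on arrays where all feces values were at the floor.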

How the results depend on the processing

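Where at least 1 member could be tested, the number of members that passed stayed within 1.5 times the main number unless listed here. Over miRNAs detected on every array, no member was left to test in any comparison with feces, so those results were not checked under that setting. For dose in intestine (1 main) it was 2 with normexp, quantile normalization, the percentile of all miRNAs, the log2 mean of probes, array weights or trend and robust eBayes, 3 with the software's total signal, and 0 without scaling, without a filter, in the fit of all 6 groups and within either slide row. Leaving out 1 array gave 0 to 2. Under the settings that gave 2, 91, 121, 107, 109, 182 and 132 of 335 tested miRNAs passed, in the order listed. With the total signal 162 of 391 passed. For dose in serum (0 main) it was 1 with the percentile over all miRNAs or array weights. It was 2 in the fit of all 6 groups. There 13, 13 and 26 of 193 tested miRNAs passed, in that order. Leaving out 1 irradiated array gave 0 to 1 member. For the dose effect in feces against intestine (0 main) it was 1 without a filter and 1 with the total signal. There 1190 of 1881 and 156 of 712 miRNAs passed. For serum against intestine (0 main) it was 1 with quantile normalization, normexp, no filter or array weights. It was 2 without scaling or with the total signal. In that order, 93 of 416, 221 of 416, 1156 of 1881, 176 of 416, 130 of 416 and 98 of 510 miRNAs passed. Leaving out 1 array of a group of 4 gave 0 to 1 member. For feces against serum (1 main) it was 0 with normexp, the log2 mean of probes, the brightest probe, array weights, slide row as a term or within either row, and leaving out 1 array gave 0 to 1. For serum against intestine at 0 Gy (2 main) it was 0 with quantile normalization and 4 without a filter. There 306 of 347 and 1404 of 1881 miRNAs passed, and without a filter the median change was 0. It also differed within slide row 2, which holds 1 unirradiated serum array. At 10 Gy it was 1 of 2 over miRNAs detected on every array, and for feces against serum at 10 Gy it was 2, not 1, without a filter. The causes were not tested.

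Signs turned in 18 cases. Without scaling, miR-18a-5p (0.35) and miR-19b-3p (0.028) in intestine, miR-106b-5p in feces (-0.18), and the feces against intestine effects of miR-25-3p (-0.021) and miR-92a-3p (-0.56) turned. miR-18a-5p also turned with array weights (0.0090), within slide row 1 (0.025) and without intestine 10 Gy replicate 3 (leaving out 1 array gave -0.21 to 0.00074). With normexp, miR-25-3p turned in serum (0.016), in serum against intestine (0.80) and in feces against serum (-0.17), and miR-92a-3p in serum against intestine (0.26). In feces within slide row 1, miR-17-5p (-0.91), miR-20a-5p (-0.61), miR-20b-5p (-0.73) and miR-93-5p (-0.86) turned, and within row 2 miR-106b-5p (-0.11). With quantile normalization miR-92a-3p turned in serum against intestine at 0 Gy (0.22).

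Arrays of like replicate number did not deviate together in intestine or feces, where same-number correlations between the doses ran from -0.565 to 0.436 and from -0.429 to 0.399. In serum there were only 2 such pairs, both positive (0.278 and 0.44), too few to take the numbers as pairing. The 2 unirradiated arrays deviate equally and oppositely from their mean, so each of these values returns with its sign turned for an unlike number. The contrast with unlike numbers (-0.44 to 0.213) was thus partly fixed in advance. With the replicate block, adjusted p in intestine was 0.0237 for miR-25-3p and 0.056 for miR-92a-3p, and the pairing left 0 members for feces against serum. In serum the block gave -1.83 (adjusted p = 0.0985) for miR-25-3p and -1.51 (0.234) for miR-92a-3p, and the limma calls there went from 9 to 0 of 193, with 26 at an unadjusted p below 0.05. Signals near background limit what can be said of miR-32-5p, miR-92b-3p and miR-363-3p, and 2 unirradiated serum arrays limit the serum comparison.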
